A study of Mus musculus with 10 samples.

Results

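The genes described here are 10 targets of the hypoxia-inducible factors (HIFs) measured in mouse embryonic stem (ES) cells that lack Tet1, Tet2 or both. The members were selected on the fall of 1 of them, Ankrd37, in the comparison of double-knockout with wild-type cells, and the other 9 (Bnip3, Egln1, Egln3, Pdk1, Vegfa, Ndrg1, Slc2a1, Adm and Kdm3a) are genes known to be induced by HIF, taken to ask whether they share that fall. All probes that the array names for these genes were used, which gave 14 probes among the 39429 on the array. All 14 were among the 25837 probes tested, and each was well above background, by the scanner software's call, in 18 of 18 labelled channels, with no saturated spot.

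RNA of 11 labelled ES cell lines was hybridised to 10 two-colour oligonucleotide arrays. The lines were 4 that lack Tet1 and Tet2 (DKO: 51 and 61, male; 60 and 59, female), 2 male lines that lack Tet1 (T1KO: 99 and 65), 1 male line that lacks Tet2 (T2KO: 16), and 4 wild-type lines (WT: 6 and 92, male; 7 and 94, female). Tet1 and Tet2 encode dioxygenases that oxidise 5-methylcytosine in DNA. All lines were given as C57/BL/6, described by the submitters as a mixed background, and grew with LIF on irradiated feeder cells that preplating on gelatin took out ahead of RNA extraction. The labels give no age and no oxygen tension, and do not say which part of Tet1 or Tet2 was deleted. DKO RNA, in Cy5, was hybridised against WT RNA of the same sex, in Cy3, as 4 pairs of lines on 6 arrays, and T2KO 16, in Cy5, against T1KO 65, in Cy3, on 2 arrays. T1KO 99, in Cy3, shared its 2 arrays with a sample that the submitters left out for a false genotype. That sample enters no test here, and some of its levels are given at the end. No dyes were swapped, and male DKO, female DKO and single-knockout arrays lay on 3 different slides, so dye and genotype, and slide and sex, cannot be told apart. Each line is 1 derivation, so a p-value rests on how much such lines vary, and their number limits the precision.

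HIF is a transcription factor made of an oxygen-regulated alpha subunit and the constant partner Arnt. When oxygen is plentiful, prolyl hydroxylases of the Egln family mark the alpha subunit, which the Vhl ubiquitin ligase then sends for degradation. When oxygen is short, the alpha subunit escapes, binds DNA at a short core written ACGTG or GCGTG, and turns on genes of glucose uptake, glycolysis, mitochondrial turnover and blood vessel growth. The Egln genes are themselves HIF targets and so close a feedback loop. Ankrd37, a small ankyrin-repeat protein, is known as a direct HIF-1 target in human cells.

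Ankrd37 was read by a single probe of 60 bases, placed by the array's design on chromosome 8 (chr8:47082404-47082463 in mm9, minus strand). Its sequence is printed because every value of Ankrd37 rests on it, and no base is capitalised. Whether the lines, of mixed background, differ in sequence under this probe was not tested, so a lower level is a lower signal of this probe.
Ankrd37 probe: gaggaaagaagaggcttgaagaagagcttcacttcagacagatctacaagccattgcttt

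Promoters are shown for Ankrd37 and for 3 members of which no probe was called, to set the HIF core side by side. They are RefSeq windows of 300 bases in GRCm38.p6, from 250 before to 50 after the start of transcription, with each ACGTG or GCGTG on either strand (CACGT or CACGC when read on the other) in capitals.
Ankrd37 promoter, chr8:45999801-46000100, minus strand: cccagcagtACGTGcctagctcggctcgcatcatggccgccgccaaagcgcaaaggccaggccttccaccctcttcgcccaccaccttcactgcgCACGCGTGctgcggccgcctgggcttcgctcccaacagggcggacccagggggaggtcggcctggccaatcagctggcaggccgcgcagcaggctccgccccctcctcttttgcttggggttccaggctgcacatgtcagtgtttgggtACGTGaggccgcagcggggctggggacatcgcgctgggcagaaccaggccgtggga
Bnip3 promoter, chr7:138909457-138909756, minus strand: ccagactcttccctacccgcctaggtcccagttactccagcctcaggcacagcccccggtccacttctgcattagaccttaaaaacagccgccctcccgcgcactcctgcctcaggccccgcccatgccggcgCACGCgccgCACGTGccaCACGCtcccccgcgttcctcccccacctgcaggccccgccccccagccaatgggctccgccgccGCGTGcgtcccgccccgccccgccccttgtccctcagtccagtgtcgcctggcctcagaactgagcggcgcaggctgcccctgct
Slc2a1 promoter, chr4:119108495-119108794, plus strand: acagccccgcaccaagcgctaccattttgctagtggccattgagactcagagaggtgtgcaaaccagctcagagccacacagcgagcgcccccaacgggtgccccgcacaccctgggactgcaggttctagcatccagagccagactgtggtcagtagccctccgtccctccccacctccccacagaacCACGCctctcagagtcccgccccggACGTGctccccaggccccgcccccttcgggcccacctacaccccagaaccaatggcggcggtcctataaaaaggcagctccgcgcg
Egln3 promoter, chr12:54203825-54204124, minus strand: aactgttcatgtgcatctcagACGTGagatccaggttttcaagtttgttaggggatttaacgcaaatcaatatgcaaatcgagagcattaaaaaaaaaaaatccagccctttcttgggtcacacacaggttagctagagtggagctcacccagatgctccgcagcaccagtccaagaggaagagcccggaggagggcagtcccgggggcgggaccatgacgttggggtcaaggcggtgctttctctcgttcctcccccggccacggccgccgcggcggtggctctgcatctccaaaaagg
The Ankrd37 window held 4 matches, which begin 241, 155, 152 and 6 bases before the start site, the middle pair overlapping. Bnip3 held 5, 2 of which overlap, Slc2a1 held 2 and Egln3 held 1. Of the 10 members 9 had a window in the table, and each of these 9 genes held the core in at least 1 of its windows (9 of 13 windows). The core is short and common: 43.8% of the 32851 promoters of this length held it. A match shows only that the letters are there.

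Tet1 and Tet2 were examined first, since they check the labels. The normalized log2 level of Tet1 was 10.52 to 11.07 in the DKO lines, 10.92 and 10.996 in the T1KO lines, 12.91 in T2KO and 12.78 to 13.12 in the WT lines. Tet2 stood at 9.40 to 10.11 in the DKO lines, 11.43 and 11.57 in the T1KO lines, 9.74 in T2KO and 11.51 to 12.05 in the WT lines. By these brightest probes, every line was low in the gene or genes its label names. The other Tet1 probes had DKO over WT ratios of -1.43 and -1.97, and the second Tet2 probe -1.92. The third Tet2 probe, dimmer at a mean level of 7.73, did not fall, at 0.19 in DKO over WT and 0.04 in T2KO over T1KO. All 8 ES cell markers were measured, at a median level of 14.93 (DKO 60) to 15.23 (WT 6) over the 11 lines. Pou5f1 stood at 15.17 to 15.72 and Nanog at 15.10 to 15.96. Klf4 was less even, at 13.04 in WT 6 and 14.01 to 14.14 in the other WT lines. All 16 feeder fibroblast markers were measured too, at a summed level of 17.88 to 18.15 in the DKO lines, 18.16 and 18.23 in the T1KO lines, 17.91 in T2KO and 17.80 to 18.55 in the WT lines. A sum leans on the brightest markers. Their median level was 12.30 to 13.12 in the DKO lines, 12.32 and 12.90 in the T1KO lines, 12.43 in T2KO and 12.06 to 12.96 in the WT lines. It was highest in DKO 60 and lowest in WT 7, which form 1 pair. Of 6 markers of red cells or extraembryonic cells only Gata6 and Sox17 were tested.

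Ankrd37 was the member that set the DKO lines apart. Its log2 level was 8.29, 8.64, 7.85 and 9.60 in DKO 51, 61, 60 and 59. It was 10.83 and 11.15 in T1KO 99 and 65, and 12.02 in T2KO 16. In WT 6, 92, 7 and 94 it was 10.86, 11.22, 11.42 and 11.47. All 4 DKO lines thus lay below every other line, the T1KO lines lay just below and within the WT range, and the T2KO line, labelled with the same dye as the DKO lines, had the highest level of all. T1KO 99 at 10.83 and WT 6 at 10.86 were neighbours in that order that differ by less than the spread of the WT lines (SD 0.278, n = 4), and the DKO lines spread more widely (SD 0.745, n = 4).

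Within pairs, the log2 ratio of DKO over WT for Ankrd37 was -2.57 (51 over 6), -2.58 (61 over 92), -3.57 (60 over 7) and -1.87 (59 over 94). The mean was -2.65 (SD 0.698, 4 pairs), a 6.26-fold lower level, and repeat arrays of a pair differed by far less than pairs did, at -2.61 and -2.53 for 51 over 6 and at -1.84 and -1.90 for 59 over 94. These are the values that selected the members, so they are given as a description. Across the array 1028 of 25837 probes (3.98%) passed limma's test in DKO over WT at a Benjamini-Hochberg adjusted p under 0.05, 629 higher and 399 lower, and Ankrd37 was the 1 of 14 member probes among them. That split of 61.2% higher calls became 72.9% (558 higher, 207 lower) when the scanner's processed log ratios were used and 91.8% (8565 higher, 768 lower) with median centring of each array. It was 57.8% with normexp fitted on all spots, 51.6% (888 higher, 833 lower) with every array kept and pairs as random blocks, and 42.9% (3 higher, 4 lower) with sex as a covariate. When any 1 of the 4 pairs was left out, 0 probes passed (4480 to 6031 had an unadjusted p under 0.05), Ankrd37 included.

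**Figure D1:**
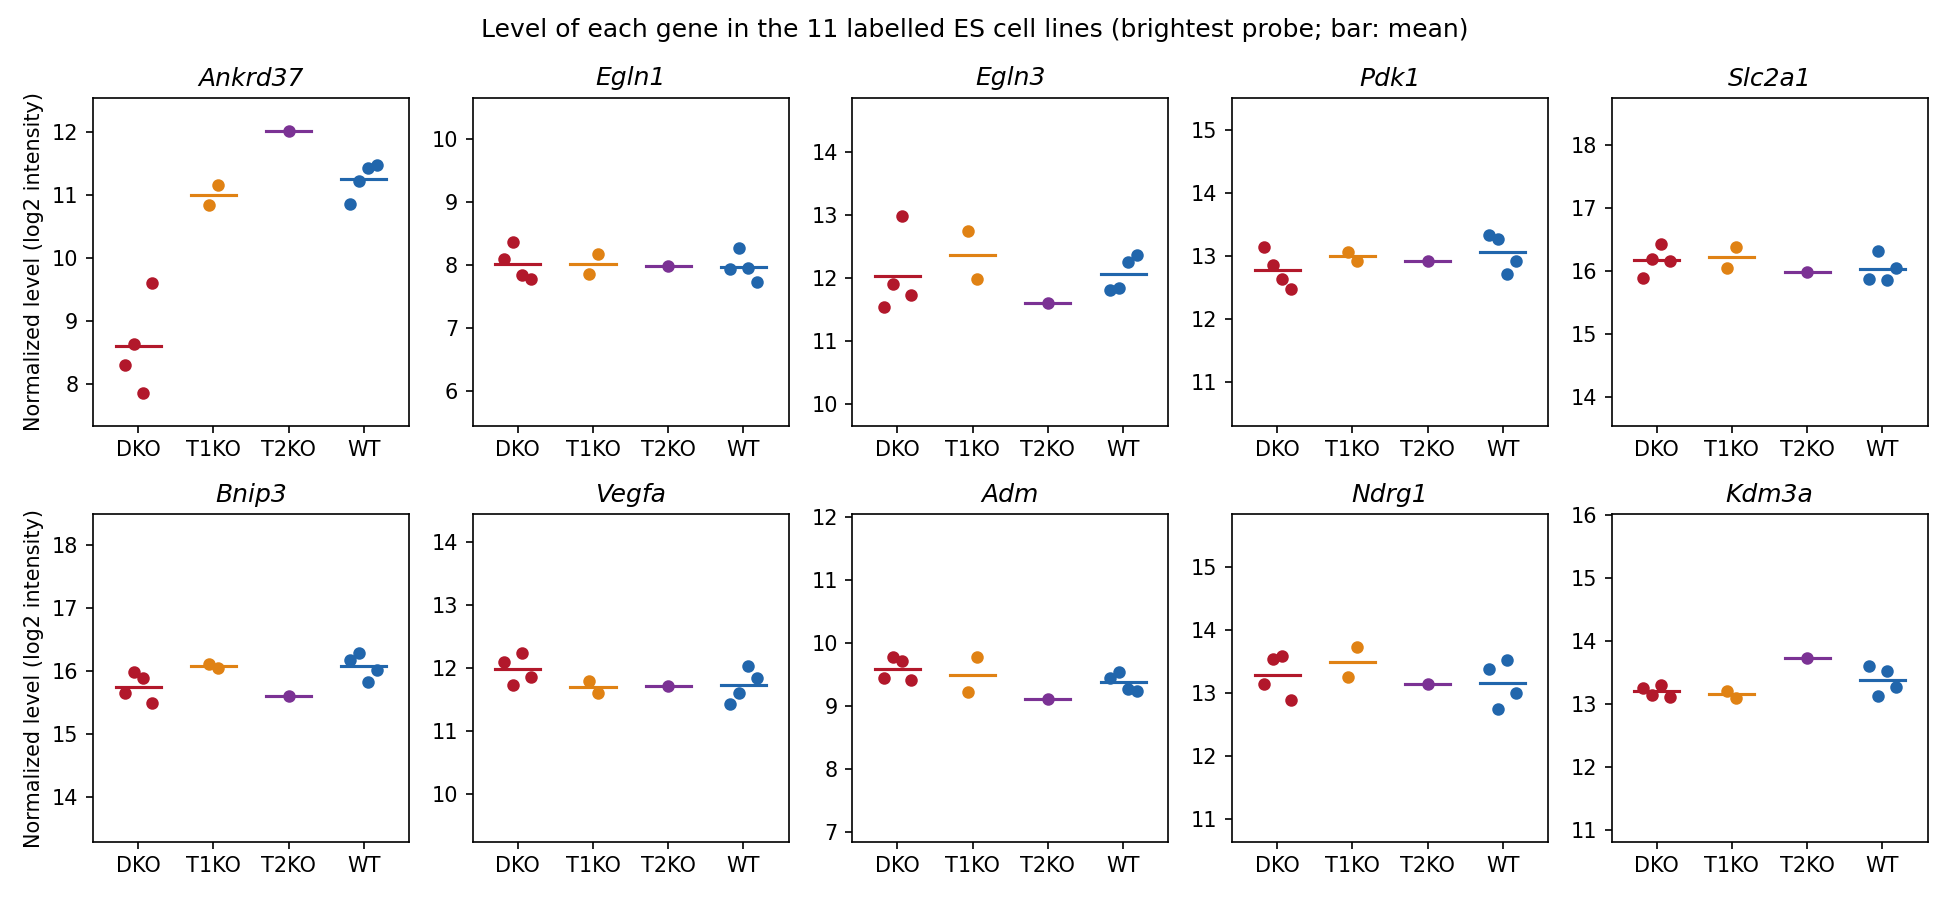
Normalized level (log2 intensity) of the 10 HIF targets in the DKO, T1KO, T2KO and WT lines, by the brightest probe of each gene; points are lines, bars are group means, and all panels span the same number of log2 units. The 4 DKO lines stand at 7.85 to 9.60 for Ankrd37, below the other 7 lines at 10.83 to 12.02, whereas the DKO and WT lines overlap in the other panels.

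The other 9 genes did not form such a gap. By limma 0 of their 13 probes passed the test in DKO over WT, against 3.98% of all tested probes. An unadjusted p under 0.05 was found for 2 of the 13, and for 6729 of all 25837 tested probes. At a share of 3.98% few of any 13 probes would pass, so the count of 0 shows little by itself. None of the 13 had DKO lines that stood clear of the WT lines. Over all tested probes, 5.89% had every DKO line below every WT line and 7.38% had every DKO line above. The 13 probes had log2 ratios from -0.32 to 0.26 with a median of 0.02, the same as the median of all tested probes at 0.02. Of the 13, 7 were positive and 6 negative, and for 11 of them the 95% confidence interval of the mean ratio included 0.

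The oxygen sensors came first. Egln1, the main HIF prolyl hydroxylase, had a log2 level of 8.09, 8.36, 7.83 and 7.78 in DKO 51, 61, 60 and 59, against 7.93, 8.27, 7.95 and 7.73 in WT 6, 92, 7 and 94. Its ratio was 0.05, with a 95% interval of -0.13 to 0.22, the narrowest of the members. The 60-base Egln1 probe is placed over only 13 bases by the design's coordinates (chr8:127432487-127432499 in mm9, minus strand).

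Egln3, a prolyl hydroxylase strongly induced by hypoxia, varied most among the DKO over WT pairs after Ankrd37. By its brighter probe (chr12:55280953-55281012, minus strand) it stood at 11.54, 11.91, 12.98 and 11.72 in DKO 51, 61, 60 and 59, and at 11.81, 11.84, 12.25 and 12.37 in WT 6, 92, 7 and 94. DKO 60 was high and the other 3 DKO lines were within or below the WT range. The 4 pair ratios were -0.27 (51 over 6), 0.07 (61 over 92), 0.73 (60 over 7) and -0.65 (59 over 94), a mean of -0.03 (SD 0.585), and its other probe gave 0.03 (SD 0.576). The pair 60 over 7, in which Egln3 was highest and Ankrd37 lowest, is also the pair in which the 16 feeder fibroblast markers had a median log2 ratio of 0.91, against -0.53 to -0.02 in the other 3 DKO over WT pairs. The part of feeder cells in the Egln3 values was not tested. For Ankrd37, the mean ratio without that pair was -2.34.

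In metabolism, Slc2a1 (probe at chr4:118809864-118809923 in mm9, plus strand) encodes the glucose transporter GLUT1. It had levels of 15.89, 16.20, 16.43 and 16.16 in DKO 51, 61, 60 and 59, and of 15.88, 16.31, 15.86 and 16.05 in WT 6, 92, 7 and 94. Its ratio was 0.14 (95% interval -0.17 to 0.46), and 0.57 in the pair 60 over 7 alone. Pdk1 (chr2:71739688-71739747, plus strand), a kinase that keeps pyruvate from entering the citric acid cycle, stood at 13.14, 12.86, 12.63 and 12.47 in DKO 51, 61, 60 and 59, and at 13.33, 13.27, 12.71 and 12.92 in WT 6, 92, 7 and 94. Its ratio was below 0 in all 4 pairs, as it was for 16.9% of all tested probes, with a mean of -0.28 (95% interval -0.50 to -0.07, limma adjusted p = 0.125 over all probes), which turned to 0.11 under median centring, where the median of all probes moved to 0.21 (Pdk1 relative to it, -0.10).

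Bnip3, a mitochondrial protein of mitophagy and cell death, was read by 3 neighbouring probes on the minus strand of chromosome 7. The brightest (chr7:146082760-146082819), at 15.64, 15.97, 15.88 and 15.49 in DKO 51, 61, 60 and 59, against 16.17, 16.28, 15.82 and 16.01 in WT 6, 92, 7 and 94, had a ratio of -0.32 (95% interval -0.62 to -0.03, adjusted p = 0.165), and the next had -0.25. Both turned positive under median centring, to 0.36 and 0.38, or 0.15 and 0.17 relative to the median of all probes. The third probe, which is far dimmer, had -0.03. All 3 were positive in the pair 60 over 7, at 0.06 to 0.19.

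Of the secreted factors, Vegfa, the main driver of vessel growth, had 2 probes that differed. A_52_P638895 (chr17:46154387-46154446, minus strand) stood at 12.09, 11.73, 12.24 and 11.86 in DKO 51, 61, 60 and 59, and at 11.43, 11.60, 12.02 and 11.84 in WT 6, 92, 7 and 94. Its ratio was above 0 in all 4 pairs, as it was for 19.9% of all tested probes, with a mean of 0.26 (95% interval -0.04 to 0.56) and the highest value, 0.66, in the pair 51 over 6. A_52_P249424 (chr17:46162376-46162435, minus strand) had 0.02 (95% interval -0.32 to 0.35). Adm (chr7:117773088-117773147, plus strand), the precursor of the vasodilator adrenomedullin, had 9.42 to 9.77 in the DKO lines and 9.24 to 9.54 in the WT lines, a ratio of 0.21 (95% interval -0.01 to 0.44).

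Ndrg1 (chr15:66761057-66761116, minus strand), a stress-responsive protein of differentiating cells, ran from 12.89 to 13.59 in the DKO lines and from 12.75 to 13.52 in the WT lines. Its ratio was 0.12 (95% interval -0.34 to 0.59), and 0.79 in the pair 61 over 92. Kdm3a (chr6:71539112-71539171, minus strand), a histone H3 lysine 9 demethylase, ran from 13.11 to 13.30 in the DKO lines and from 13.13 to 13.61 in the WT lines, a ratio of -0.18 (95% interval -0.38 to 0.02) that turned to 0.24 under median centring (0.03 relative to the median of all probes). For all 9 genes the groups overlapped.

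**Figure D2:**
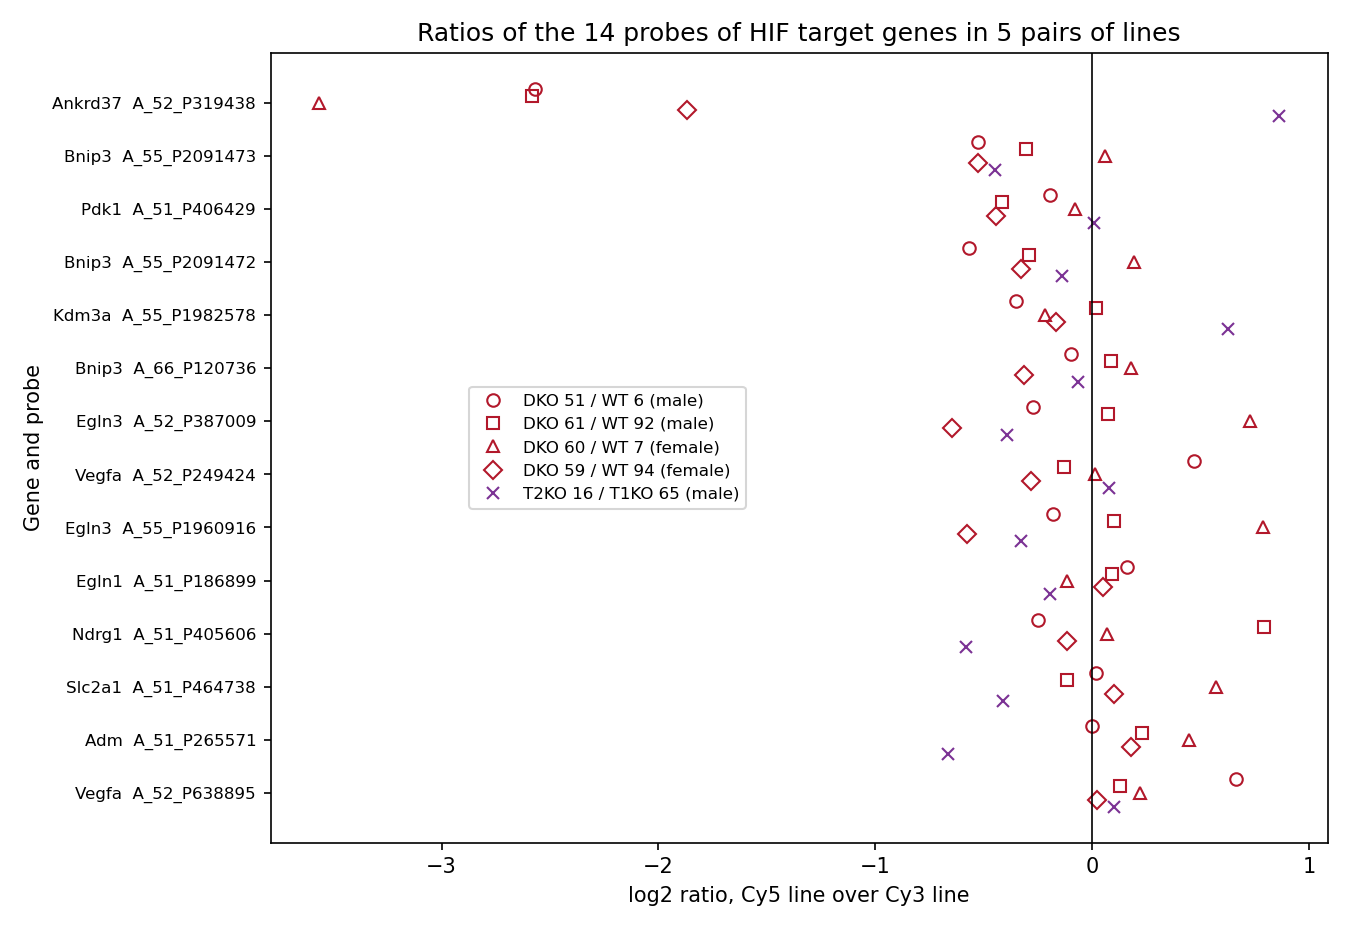
Log2 ratio, Cy5 line over Cy3 line, of each of the 14 probes (rows, ordered by the mean of DKO over WT) in the 4 DKO over WT pairs (open symbols) and in the T2KO over T1KO pair (cross). Ankrd37 lies at -3.57 to -1.87 in the DKO pairs and at 0.86 in T2KO over T1KO, and all other points lie between -0.66 and 0.79.

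The same question was put to genes that were not members. The counts of these lists stand against the 3.98% of all tested probes that passed in DKO over WT. Of 38 other HIF targets measured (40 were listed), 0 passed limma's test in DKO over WT (smallest adjusted p = 0.054), with 17 positive and 21 negative ratios and a median of -0.02. Gbe1, the glycogen branching enzyme, at 0.89 (SE 0.164, adjusted p = 0.054), and Plod1, a collagen lysyl hydroxylase, at -0.53 (SE 0.101, adjusted p = 0.0569), had the smallest p-values. Of 16 glycolytic genes under HIF, 1 was called higher and 15 did not pass, with a median of 0.10. The called probe is one of 8 named for Gapdh, a glycolytic dehydrogenase with many processed copies, and had a ratio of 0.33 (SE 0.054, adjusted p = 0.045), which ran from 0.22 to 1.24 and passed in 3 of 12 alternatives. The array's design places it on chromosome 8, while RefSeq places Gapdh on chromosome 6, and the 7 other Gapdh probes had ratios of -0.27 to 0.25. None of the 8 ES cell markers passed in DKO over WT, though 7 had a negative ratio and 1 a positive one, with a median of -0.12. Gata6 and Sox17 did not pass either. Among the 16 feeder markers 1, S100a6, was lower at -0.66 (limma adjusted p = 0.0353).

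Of 16 genes of the HIF pathway itself, 1 fell and 15 did not pass, with a median of 0.02. Over all tested probes 3.98% passed, so 1 call among 16 is near that share. The gene that fell was Hif3a, the third alpha subunit, some forms of which hold the other alpha subunits back. Its log2 level was 9.26, 9.38, 9.68 and 9.61 in DKO 51, 61, 60 and 59, against 9.997, 10.22, 10.26 and 10.41 in WT 6, 92, 7 and 94. The DKO lines thus lay below every WT line, as for 5.89% of all tested probes. It stood at 10.09 and 10.70 in T1KO 99 and 65 and at 10.31 in T2KO 16. Its ratio was -0.74 (SE 0.0695, limma adjusted p = 0.0228), between -0.84 and -0.58 in the 4 pairs, and it kept its call in 6 of 12 alternatives. It rests on 1 of 3 Hif3a probes, and the others, both dimmer, at mean levels of 6.58 and 6.66, had ratios of -0.02 and -0.03. Hif1a, the main alpha subunit, had 10.54 to 10.95 in the DKO lines and 10.69 to 11.10 in the WT lines. Epas1, the HIF-2 alpha subunit, had 12.26 to 13.58 in the DKO lines and 11.67 to 12.88 in the WT lines. Neither passed.

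**Figure D3:**
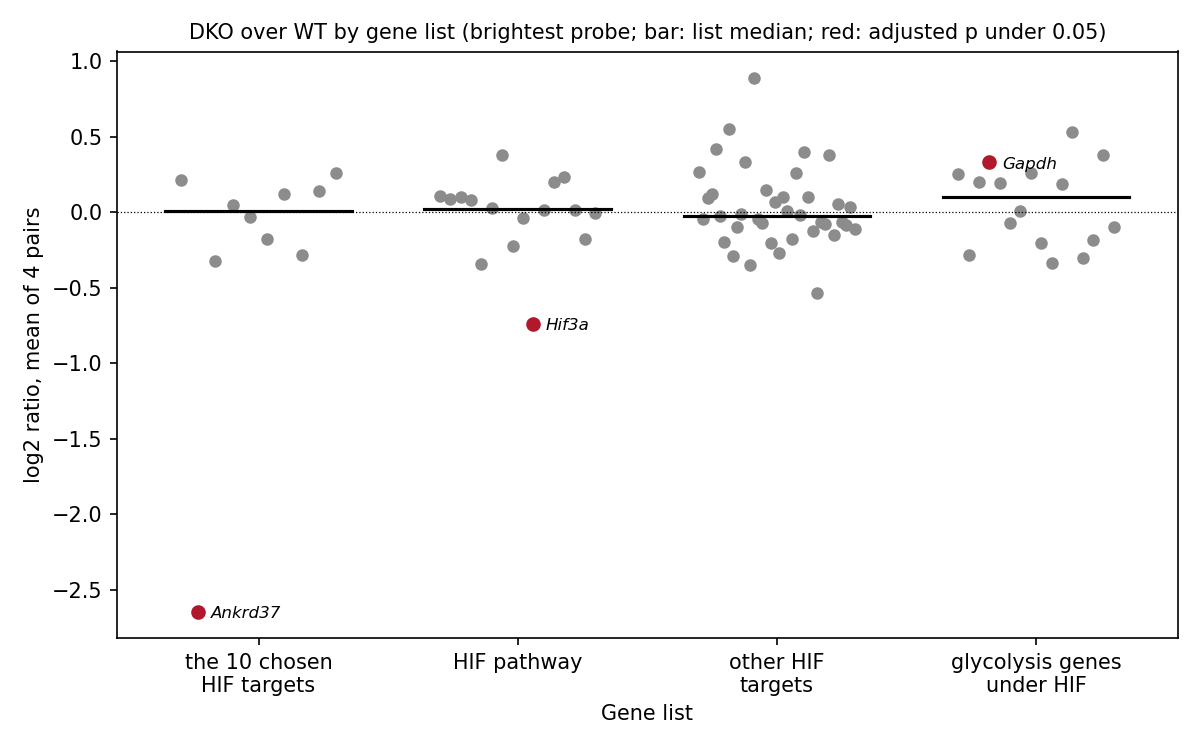
Mean log2 ratio of DKO over WT in 4 pairs for the 10 HIF targets, the HIF pathway, other HIF targets and glycolytic genes; points are genes by their brightest probe, bars are list medians, and red points have an adjusted p under 0.05. Ankrd37 at -2.65 and Hif3a at -0.74 lie below the other genes of their lists, and the 4 medians lie between -0.02 and 0.10.

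Single loss of Tet1 or of Tet2 was then examined. In T2KO over T1KO, a direct competition of 1 pair of lines, 0 of 25837 probes passed limma's test (0%; 3289 had an unadjusted p under 0.05), and even Tet1 and Tet2, at 1.99 and -1.69, did not pass. This comparison shares no line with DKO over WT and runs its dyes the same way. Its SE, however, comes from the DKO over WT pairs, since 1 pair has no spread of its own. Ankrd37 had a ratio of 0.86 (SE 0.587, adjusted p = 0.586), above 98.1% of the tested probes. Adm stood at 9.11 in T2KO 16 and 9.77 in T1KO 65, Kdm3a at 13.73 and 13.10, and Ndrg1 at 13.15 and 13.73. For Adm and Kdm3a the T2KO line lay outside the range of the other 10 lines, at the low end and at the high end. Every probe has some line at each end, and the share of all probes for which it is the T2KO line is not given. Adm had -0.66 (SE 0.169), Kdm3a 0.63 (SE 0.174) and Ndrg1 -0.58, and the 13 probes other than Ankrd37 had a median of -0.19, against 0.01 for all probes. The 38 other HIF targets had 11 positive and 27 negative ratios, with a median of -0.13, with Gbe1 at -1.10 and Ddit4 at -0.72. The 16 glycolytic genes had a median of 0.04, with Slc16a3 at -0.70. Of the ES cell markers 6 were positive and 2 negative, with Zfp42 at 0.97 and Esrrb at 0.77. Of the feeder markers 7 were positive and 9 negative, with Tagln at -1.62 and S100a6 at -0.96.

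In T1KO over male WT, both read in Cy3 on different slides, 0 probes passed limma's test (0%; 3448 had an unadjusted p under 0.05). Ankrd37 had a difference of -0.05 (95% interval -0.47 to 0.38). Egln3 stood at 12.74 and 11.99 in T1KO 99 and 65, against 11.81 and 11.84 in WT 6 and 92, by its brighter probe. It had 0.54 and 0.68 by its 2 probes (adjusted p = 0.404 and 0.316). Pdk1 had -0.31 and the dim Bnip3 probe 0.31, and the 13 probes other than Ankrd37 had a median of 0.01. Epas1 had the largest difference of the HIF pathway, at 0.99 (SE 0.301, adjusted p = 0.303). The 38 other HIF targets had 26 positive and 12 negative differences, with a median of 0.09, with Ak4 at 0.65 and Ccng2 at -0.50. The glycolytic genes had 12 positive and 4 negative, with a median of 0.11, with Slc2a3 at 0.55 and Tpi1 at 0.48. Of the ES cell markers 3 were positive and 5 negative, with Klf4 at 1.00 and Tdgf1 at -0.23.

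In male DKO over T2KO, both read in Cy5 on different slides, 1 probe passed limma's test (0.00387%; 3299 had an unadjusted p under 0.05). It was that of Gm10499 at -4.19, and was no member. Ankrd37 had a difference of -3.55 (SE 0.722, 95% interval -5.44 to -1.66), an 11.7-fold lower level that did not pass the adjustment over all probes (adjusted p = 0.334). This comparison shares DKO 51 and 61 with DKO over WT. Kdm3a had -0.52 and Adm 0.50, and 9 of the 13 other probes were positive. The 38 other HIF targets had 22 positive and 16 negative differences, with a median of 0.06, with Gbe1 at 1.24 and Cited2 at 0.71. Of the ES cell markers 2 were positive and 6 negative, with Esrrb at -0.67 and Tdgf1 at 0.36. Hif3a had -0.99 (adjusted p = 0.332).

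The DKO effect was also set against itself in males and females. In male minus female DKO over WT 0 probes passed limma's test (0%; 1313 had an unadjusted p under 0.05). The difference was 0.14 for Ankrd37 (SE 0.587), and for the other 13 probes it ran from -0.39 for Slc2a1 to 0.30 for Vegfa. Slide cannot be told apart from sex here, and 15 of the 16 feeder markers had a negative difference, with a median of -0.71. Their part in the members' differences was not tested.

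Since no other member was called, the genes beside it on chromosome 8 were examined, taking the 5 measured genes nearest to its probe on each side. In the RefSeq order of GRCm38, Ankrd37 lies between Ufsp2 and Lrp2bp. Ufsp2, a protease of the ubiquitin-like protein Ufm1, has its probe 0.342 kb from that of Ankrd37 and on the opposite strand. Its level was 11.20, 11.40, 9.92 and 11.67 in DKO 51, 61, 60 and 59, 11.41 and 11.89 in T1KO 99 and 65, 12.15 in T2KO 16, and 11.98, 12.38, 12.09 and 12.00 in WT 6, 92, 7 and 94. The DKO lines lay below the WT lines, as for 5.89% of all tested probes. DKO 60 was by far the lowest, and it was also the lowest for Ankrd37. T1KO 99, at 11.41, lay within the DKO range, unlike for Ankrd37. The Ufsp2 ratio was -1.06 (SE 0.302) and negative in 4 of 4 pairs, as for 16.9% of all tested probes, but did not pass (limma adjusted p = 0.113).

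On the same side, 1700029J07Rik, 43.2 kb away, stood at 7.15, 7.00, 7.02 and 7.50 in DKO 51, 61, 60 and 59, at 7.72 and 8.06 in T1KO 99 and 65, at 7.78 in T2KO 16, and at 7.92, 8.23, 8.18 and 8.05 in WT 6, 92, 7 and 94. It fell in the DKO lines, at a ratio of -0.92 (SE 0.132, adjusted p = 0.0363, 4 of 4 pairs), a call kept in 6 of 13 alternatives. On the other side Snx25, a sorting nexin 36.3 kb away, stood at 8.56, 9.43, 9.28 and 9.84 in DKO 51, 61, 60 and 59, and at 9.81, 9.92, 10.34 and 10.19 in WT 6, 92, 7 and 94, with an overlap between DKO 59 and WT 6. Its ratio was -0.79 (SE 0.173, adjusted p = 0.0751, 4 of 4 pairs). Over all tested probes, 16.9% had all 4 pairs below 0. Its other probe, 127 kb away, the probes of Lrp2bp, between Ankrd37 and Snx25, and that of Ccdc110, beyond 1700029J07Rik, were too dim to be tested.

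The measured genes farther out were mixed in sign. Pdlim3, at 77.7 kb, had a ratio of -0.14 (SE 0.206), Cfap97, at 198 kb on the other side, 0.05 and Slc25a4, at 210 kb, 0.10. The remaining 4, Fam149a, Cyp4v3, Acsl1 and Primpol, at 539 to 691 kb, had 0.32, 0.00, 0.02 and -0.26, and none of these 7 passed. In T2KO over T1KO none of the nearest genes passed: Ufsp2 had 0.26, Snx25 0.29 and 1700029J07Rik -0.27. In T1KO over male WT they had -0.53, -0.19 and -0.18, and in male DKO over T2KO -0.84, -0.91 and -0.71, and none of these passed. The 7 genes farther out had -2.25 (Pdlim3) to 0.85 (Acsl1) in T2KO over T1KO and 0.01 (Cfap97) to 0.45 (Fam149a) in T1KO over male WT. In male DKO over T2KO they had -0.84 (Acsl1) to 0.79 (Pdlim3), so Acsl1, at 539 kb, was as low there as Ufsp2. The part of the region in the Ankrd37 result was not tested.

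**Figure D4:**
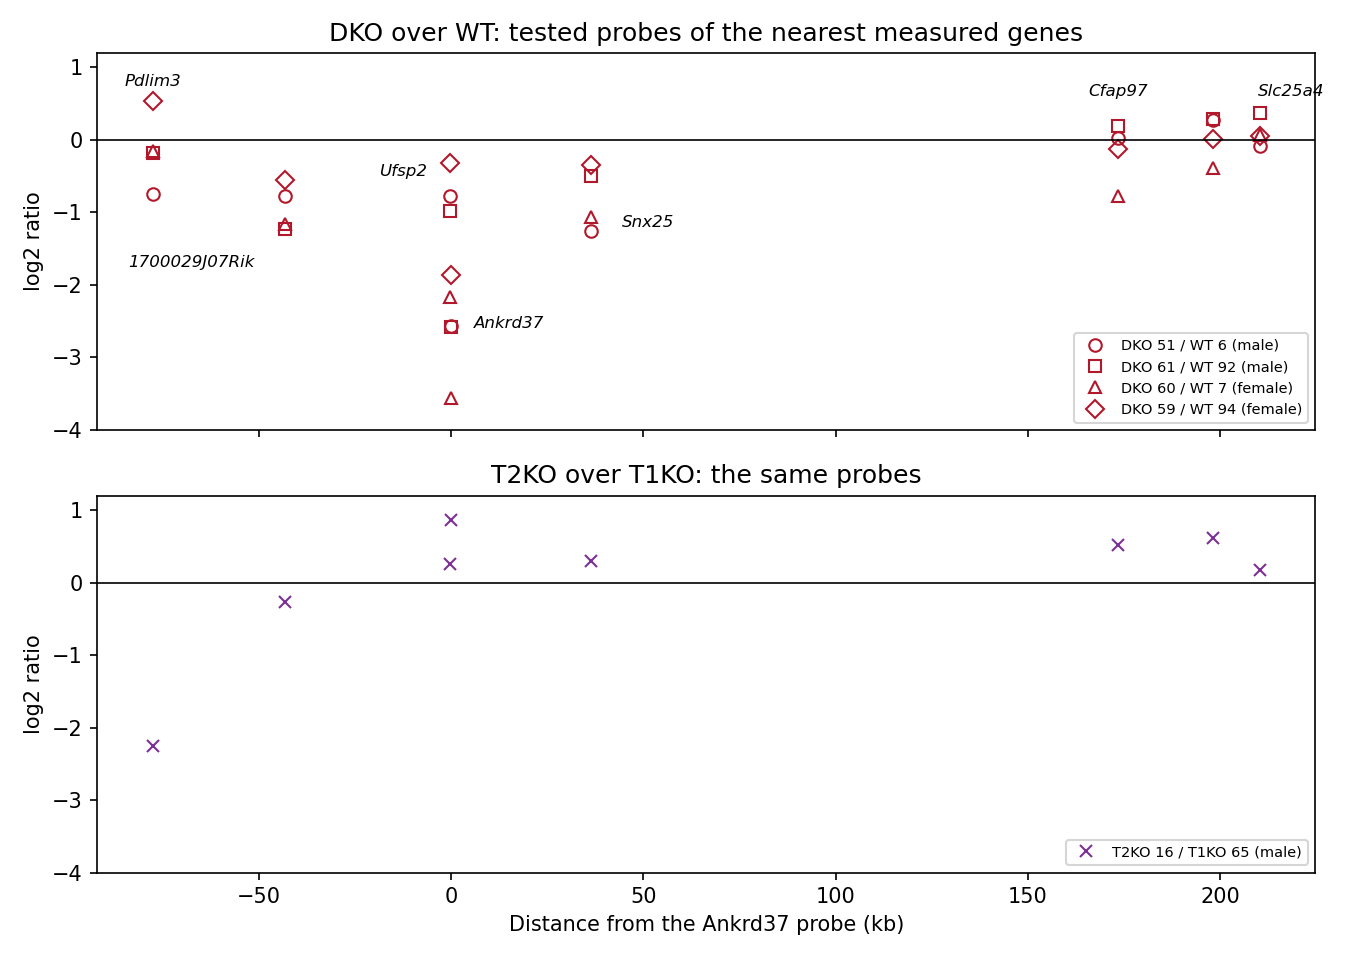
Log2 ratio of the tested probes of the measured genes nearest to Ankrd37 on chromosome 8 against distance from the Ankrd37 probe in kb, in the 4 DKO over WT pairs (upper panel) and in T2KO over T1KO (lower panel). All 4 DKO pairs lie below 0 for 1700029J07Rik, Ufsp2, Ankrd37 and Snx25, as for 16.9% of all tested probes. The ratios of Pdlim3, Cfap97 and Slc25a4 lie on both sides of 0.

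Across the 11 lines, the 5 genes whose levels followed that of Ankrd37 most closely were Zfp507 (Pearson r = 0.965), Rpain (0.952), Kif20b (0.950), Fam161b (0.945) and Zbtb12 (0.933), none of which is a member or lies on chromosome 8. The other members had r of -0.59 (Vegfa) to 0.50 (Bnip3) with it. Among the neighbours, 1700029J07Rik had 0.915, Ufsp2 0.837, Snx25 0.788 and Primpol, at 579 kb, 0.716. The rest of the neighbours ran from -0.33 (Fam149a) to 0.17 (Acsl1). These values describe 11 points that share arrays and dyes, in which the DKO lines stand apart. The share of all probes that reach such r is not given.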

How the data were processed

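RNA of 11 labelled ES cell lines was measured on 10 two-colour arrays; per the labels, each labelling took 200 ng. Scanner output made with Agilent Feature Extraction 10.1.1.1 was deposited. It gives, per the file headers, each spot's mean intensity and its local median background intensity in Cy3 and Cy5, without normalization. The same deposited files carry processed intensities, corrected for background and balanced between dyes, with their log10 ratio of Cy5 over Cy3. The authors' value table is close to a log2 scale and runs as those ratios do (r = 0.927 to 0.973 over arrays, slope 2.80 to 2.93). Its column medians are 0.00182, 0.00354, 0.00544, 0.00499, 0.00318, 0.00751, 0.00673, 0.00566, 0.00212 and 0.00684. How it was normalized or centred is not known here, and it served as an alternative.

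Background was corrected by normexp (offset 50), fitted after dropping the gene spots dimmer than their own background (71 to 122 an array). Loess normalized ratios within arrays and Aquantile normalized channels between them (limma 3.58.1, R 4.3.3, with the packages data.table, version 1.17.8, and jsonlite, version 2.0.0). A level is the resulting log2 intensity of a line. Control and outlier spots were left out, and spots of a probe and repeat arrays were averaged. A probe was tested if, in at least 1 group, every array had it well above background. Such spots were 55.2% to 61.5% of gene spots in Cy3 and 62.6% to 69.0% in Cy5. Repeat arrays correlated at r = 0.918 to 0.968 over tested probes, and different DKO over WT pairs at 0.197 to 0.476.

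Ratios were tested with lmFit and eBayes, two-sided, with Benjamini-Hochberg adjustment over 25837 probes at 0.05. T2KO over T1KO and the sex difference came from a fit of all 5 pairs with a mean per group. The DKO over WT pairs alone gave its spread. T1KO over male WT and male DKO over T2KO used 1 channel, in which the remaining lines added to the spread only. For lists, a gene is its brightest probe. The scripts were tested on simulated data, and plots were drawn with matplotlib 3.10.9.

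The members and lists were chosen with earlier results of these data known. The text names all member probes, Tet1 and Tet2. Of the list genes it names those past the test or with the smallest p in DKO over WT. For the other comparisons it names some of those with the smallest p. It also names the 5 nearest measured genes on each side of Ankrd37 and the 5 genes most like it. Hif1a, Epas1 in DKO over WT, Pou5f1, Nanog and dim probes near Ankrd37 were added after their values were seen. Alternatives changed the background fit, normalization, filter, variance prior, covariates and lines. Probe positions are from the array's design (mm9), and no exon annotation was used.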

Additional observations from a re-analysis of the deposited data

Results flagged for a closer look

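None of the 10 HIF targets had a line or pair far from the rest of its group of 4. Of 189 groups of 4 examined, of which about 5% would stand out by chance, 12 had one. In WT 6, Tet1 was high at 13.12 (12.78 to 12.82 in the other WT lines), Klf4 was low at 13.04 (14.01 to 14.14) and Slc2a3 was low at 15.87 (16.31 to 16.35). In WT 7, Wsb1 was high at 10.56 (10.16 to 10.18). Among DKO lines, Cul2 at 12.51 and Fn1 at 15.66 were high in DKO 51, Ccng2 at 8.002 was high in DKO 61 and Pfkl at 13.33 was low in DKO 59. Among DKO over WT ratios, the pair 61 over 92 stood apart for Tet2 at -1.39, Sox17 at -0.20 and Pfkl at -0.065, and the pair 51 over 6 for Eloc at 0.56.

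The genes named in the text or with the smallest p-values of their list in a comparison were also set by sex. For 5 of them both male pairs moved one way and both female pairs the other. All 5 were among the genes with the smallest p-values of their lists in male minus female DKO over WT, which favours such a split. Its share over all tested probes is not given. The male minus female difference of DKO over WT was -1.28 for S100a4 and -1.21 for Lum, both feeder markers, 0.64 for Hk2, a hexokinase, 0.26 for Cul2 and 0.41 for Wsb1. By limma none of these differences passed (adjusted p = 0.834 for each).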

How the results depend on the processing

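The count of 1028 probes past the test in DKO over WT moved most. It was 173 with normexp fitted on all spots, 536 in the authors' value table, 1721 with every array kept and pairs as random blocks, and 9333 with median centring. It was 7 with sex as a covariate and 0 by limma with a variance prior that follows intensity (6820 had an unadjusted p under 0.05). Leaving out any 1 pair gave a range of 0 to 0. Of the 1028, 173, 490, 856 and 766 were among the calls of the first 4 of these. T1KO over male WT gave 5 calls, and male DKO over T2KO 0, with the scanner software's processed signals. Male DKO over T2KO gave 3 with the variance prior that follows intensity, and 0 to 0 with 1 line left out. T2KO over T1KO and the sex difference gave 0 in every alternative run. In T2KO over T1KO the median of the 13 probes other than Ankrd37 changed sign under median centring, to 0.32 against 0.24 for all probes. It was -0.03 against 0.00 with normexp fitted on all spots, and -0.30 against 0.05 with the scanner software's signals. Ankrd37 ran from -2.91 to -2.34 in DKO over WT over 13 alternatives, all negative, and passed in 7. It did not pass with the variance prior (adjusted p = 0.879), with sex as a covariate (adjusted p = 0.0582) or without any 1 pair (limma adjusted p = 0.0675 to 0.156). Under median centring, Bnip3 at 0.38 and 0.36 and Utf1, an ES cell marker, at 0.41 turned positive and passed. The third Bnip3 probe at 0.24, Egln3 at 0.33 by its brighter probe, Pdk1 at 0.11, Kdm3a at 0.24, Nanog at 0.36 and Pdlim3 at 0.14 turned positive without passing, and Cyp4v3 at -0.10 turned negative. Slc2a1 at 0.85, Vegfa at 0.60 and Adm at 0.47 then passed too. Relative to the median of all probes, which was 0.21 there, Slc2a1, Vegfa and Adm were 0.63, 0.39 and 0.26. S100a6, a feeder marker called lower at -0.66, ran from -0.74 to -0.04 and passed in 4 of 13. The cause of these moves was not tested. No paired analysis was possible because the replicate numbers count repeat arrays of the same 2 lines and so pair nothing further. DKO over WT is itself tested on the within-array ratios of 4 pairs of lines.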

Other observations

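The Cy5 sample that the submitters set aside for a false genotype was hybridised against T1KO 99 and belongs to no group. Its Ankrd37 level was 10.77, against 10.83 in T1KO 99 on the same arrays. Egln3 stood at 11.57 and 10.89 by its 2 probes, against 12.74 and 11.92 in T1KO 99, and Pdk1 at 12.33 against 13.07. Adm had 8.79 against 9.22, and the brightest Bnip3 probe 15.54 against 16.10. Kdm3a was higher at 13.55 against 13.21, as were Slc2a1 at 16.35 against 16.05 and the brighter Vegfa probe at 12.08 against 11.79.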
